A study of Homo sapiens with 42 samples.

Results

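The transcriptome of the leukaemia line 697 was compared between cells carrying a vector for NSD2 and cells carrying an empty vector. The 9 libraries, of 42 in the series, comprised 3 with the empty vector (EV), 3 with wild-type NSD2 (WT) and 3 with NSD2 bearing the substitution E1099K (EK). The WT and EK libraries were pooled as 6 libraries with added NSD2, and each was set against the EV library of the same replicate number. The series used 5 lines of B-ALL, acute lymphoblastic leukaemia of the B lineage: 697 and Reh were given extra NSD2, and the other 3 were given short hairpins against it. Its title concerns E1099K at relapse of the childhood disease and a drug resistance that varies with the cell context. The line 697 is an established B-cell precursor leukaemia line. The labels give no treatment, and all 9 libraries came from that 1 line, so the endogenous NSD2 gene was present in every arm. No promoter or vector backbone is named in the labels, nor do they say whether the replicates come from separate cultures. The p-values therefore cover only how far these samples vary, and that variation may be technical.

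NSD2 encodes a histone methyltransferase that places mono- and dimethylation on lysine 36 of histone H3 (H3K36). H3K36 dimethylation covers gene bodies and intergenic chromatin and hinders the Polycomb enzyme that trimethylates lysine 27, so NSD2 is known mainly as a counterweight to Polycomb silencing. E1099K lies in the catalytic SET domain, raises the activity of the enzyme and recurs in childhood B-ALL.

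Between 40664735 and 57179806 reads per library were recovered for 697 from the normalized counts. Libraries with the same replicate number deviated together from their arm means (correlations from 0.423 to 0.604 across genes, 9 pairs), and libraries with different numbers did not (from -0.413 to -0.056, 18 pairs). Deviations within an arm sum to 0, which pushes the values of different numbers below 0 once those of the same number lie above it. The negative values are therefore not separate evidence of pairing. The B-lymphoid identity of the line was plain in every library: CD79A, a chain of the B-cell receptor, ranged from 9113 to 14055 normalized counts and the B-lineage factor PAX5 from 24152 to 44032, with no call for either, while the T-cell gene CD3G and the erythroid gene ALAS2 were at 0 throughout. No call was made among the T and NK, myeloid, erythroid or stromal markers tested (7, 2, 3 and 4 genes). Their summed normalized counts were 11530.3 to 12589 in EV and 10305.5 to 19752 with added NSD2 for T and NK markers (led by GZMA and ZAP70), 284 to 387 and 334 to 390.3 for myeloid, 162 to 206 and 126 to 229 for erythroid and megakaryocytic, and 68876 to 80581 and 64206 to 78812.5 for stromal and epithelial markers (led by VIM). Without their 2 most abundant genes, stromal and epithelial markers summed to 197 to 222 in EV and 222 to 407 with added NSD2, which just did not overlap; their part in the results was not tested. Of all markers, 2 of 21 T and NK markers, 2 of 17 myeloid, 7 of 17 erythroid and megakaryocytic and 1 of 17 stromal and epithelial markers were at 0 in all libraries. EK replicate 2 stood apart in its mitochondrially encoded share, 0.621% of counts against 0.202% to 0.346% in the other 8 libraries. Bulk counts cannot tell fewer expressing cells from less RNA per cell.

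NSD2 itself, listed under its older symbol WHSC1, stood at 10854, 10725 and 7723 normalized counts in the EV libraries, at 110659, 87706 and 80839 with WT and at 102025, 84869.7 and 70828 with EK. All 6 libraries with added NSD2 lay far above all 3 EV libraries, by 9.16-fold on average (log2 fold change 3.20 ± 0.08, SE, limma adjusted p = 2.22e-08). An exact permutation test of its log2 level gave p = 0.0238 (two-sided), the smallest that 84 splits allow. Gene counts do not separate vector transcripts from those of the endogenous gene. EK and WT did not differ in NSD2 level beyond their error (-0.12, 95% interval -0.32 to 0.08 on the log2 scale).

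Of 16310 genes with a mean of at least 10 normalized counts, 278 were called at a limma adjusted p under 0.05 (1.7%). The calls were balanced in number, 143 higher (0.877%) and 135 lower (0.828%), and unlike in kind. Raised genes started low: their median EV level was 45.4 normalized counts against 767 over all genes tested, and 57 of the 143 had an EV mean under 20, against 2155 of all 16310. The minimum was set on the mean over all 9 libraries, 6 of them with added NSD2, so a gene near 0 in EV could pass it only through its rise, and the low start is partly fixed by that minimum. Their median log2 fold change was 1.26, and 36 of them rose at least 4-fold. Lowered genes started at a median of 810 normalized counts, fell by a median of 0.65 on the log2 scale, and none fell 4-fold. Levels in the 6 added libraries lay above all 3 EV libraries for 109 of the raised genes (1.86% of all genes tested did so), and below all 3 for 70 of the lowered genes (1.54% of all genes did so).

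Against the EV library of its own number, each WT and EK library showed the raised genes higher, with medians from 1.00 in WT replicate 3 to 1.47 in WT replicate 1. The lowered genes were deepest in the libraries numbered 1 (medians -0.82 for WT and -0.80 for EK) and shallowest in those numbered 3 (-0.43 and -0.45). Both sets were chosen on these libraries, so these medians describe the calls and do not test them. Without the replicate block 50 genes were called, 48 higher and 2 lower, so that nearly all lowered calls rest on comparing libraries of the same number. Leaving out 1 library gave 58 calls (EV replicate 1), 66 (EV replicate 2), 155 (WT replicate 1), 180 (EK replicate 1), 176 (EK replicate 3) or 425 (EK replicate 2).

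Surface receptors and adhesion molecules known from the nervous system were among the raised genes, with rises from large (NEO1 and PTPRK) to below the median of the raised genes (PLXNA2, EPHB2 and EPHB6). NEO1, a receptor for netrins and repulsive guidance molecules, was at 19.6, 18.1 and 13.6 normalized counts in EV and at 254 to 439 (median 295) with added NSD2. The groups were separated by more than 10-fold at their nearest libraries, and the mean rose 18.4-fold (log2 fold change 4.11 ± 0.15, limma adjusted p = 5.32e-07). PTPRK, a receptor tyrosine phosphatase of cell contacts, went from 29.4, 21.1 and 36.6 to 193 to 421 (median 303), again without overlap (3.34 ± 0.20, limma adjusted p = 2.92e-05). EPHB2, a receptor for ephrin-B ligands, rose from 82.0, 59.3 and 60.7 to 109 to 179 (median 116) (0.96 ± 0.12, limma adjusted p = 0.00354). It was about 1.98-fold higher, with no overlap. PLXNA2, a semaphorin receptor, was at 673, 569.7 and 1296 in EV and 1323 to 2602 (median 1675) with added NSD2 (1.2 ± 0.21, limma adjusted p = 0.0195). This call was lost with edgeR on the recovered reads (edgeR adjusted p = 0.148) and without EK replicate 1, WT replicate 1, EV replicate 1 or EV replicate 2 (limma adjusted p from 0.0521 to 0.170, log2 fold change 0.85 without EV replicate 1). Of 47 axon guidance ligands and receptors tested, 4 rose (NEO1, PLXNA2, EPHB2 and EPHB6) and 2 fell (EPHA3 and UNC5D), where 0.877% and 0.828% of all genes tested did so. The list median was 0.05 against -0.01 over all genes. The 6 list calls became 3 without EK replicate 1 or without WT replicate 1, and 2 without EV replicate 1 or without EV replicate 2.

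Several further cell-surface genes went from traces to low levels. CHL1, an adhesion molecule of the L1 family, read 0.892, 0 and 2.09 normalized counts in EV and 7.20 to 44.4 (median 17.0) with added NSD2 (limma adjusted p = 0.00411). CALCRL, the receptor subunit shared by adrenomedullin and calcitonin gene-related peptide, was at 0, 1.00 and 0 in EV and at 26.2 to 44.0 (median 40.4) in the added libraries (limma adjusted p = 4.08e-05). No fold is given for either, since the EV libraries held 3 reads or fewer in all. The atypical cadherin FAT4 moved from 4.46, 3.01 and 4.19 to 11.3 to 19.0 (median 14.6) (1.70 ± 0.30, limma adjusted p = 0.0206). Of 25 cadherins and protocadherins tested, FAT4 was the only one to rise and CDH24 the only one to fall, from 324, 298 and 409 to 199.9 to 298 (median 232) (-0.54 ± 0.10, limma adjusted p = 0.0316). FAT4, under 10 in every EV library, passed the minimum only through its rise. Outside that list, and chosen after their values were seen, the clustered protocadherin neighbours PCDHB2 and PCDHB3 rose together. PCDHB3 was at 4.46, 4.02 and 13.6 in EV and 60.1 to 108 (median 65.2) with added NSD2 (3.37 ± 0.20, limma adjusted p = 2.92e-05), and PCDHB2 at 3.57, 13.1 and 8.37 and 42.2 to 75 (median 66.5) (2.87 ± 0.32, limma adjusted p = 0.00181). RELN, a secreted protein that guides migrating neurons, was chosen in the same way and rose from 8.02, 3.01 and 6.28 to 39.1 to 112 (median 69.8) (3.41 ± 0.22, limma adjusted p = 4.18e-05). For each of the 3 genes, all added libraries lay above all EV libraries.

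Ion channel subunits formed a further group. SCN3A, a pore subunit of voltage-gated sodium channels, stood at 5.35, 4.02 and 3.14 normalized counts in EV, 230.1, 187 and 189 with WT and 105, 80.2 and 84.4 with EK. The 3 arms did not overlap, and the pooled log2 fold change was 4.73 ± 0.35 (limma adjusted p = 9.39e-05). KCNMB4, an auxiliary subunit of calcium-activated potassium channels, rose from 5.35, 6.03 and 3.14 to 39.9 to 95 (median 73.7) (3.64 ± 0.25, limma adjusted p = 4.46e-05). SCN8A, another sodium channel pore subunit, rose from 5.35, 3.01 and 4.19 to 16 to 65.4 (median 49.0) (3.03 ± 0.34, limma adjusted p = 0.00191). For both, every added library lay above every EV library. KCNK10, a leak potassium channel, was at 78.5, 70.3 and 44.0 and 71.9 to 159 (median 113), with overlapping groups (0.76 ± 0.13, limma adjusted p = 0.0206). These 4 were the only calls among 43 channel subunits tested, all upward (0.877% of all genes tested were called higher), and the list median was 0.11. SCN3A, KCNMB4 and SCN8A, under 10 in every EV library, passed the minimum only through their rise. The count of 4 and its upward direction are thus partly fixed by that minimum.

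KCNJ6, an inwardly rectifying potassium channel subunit outside that list and chosen after its values were seen, was on in 5 of the 6 added libraries and off in 1. It was at 11.6, 12.1 and 5.23 normalized counts in EV, at 9322, 11406 and 14056 with WT and at 9908, 8.23 and 12981 with EK. EK replicate 2 thus lay among the EV libraries, 9.98 log2 units below the next added library. The pooled log2 fold change was 8.43 ± 1.81 (limma adjusted p = 0.0494), and an exact permutation test gave p = 0.0714. Without EK replicate 2 it was 10.18 (limma adjusted p = 6.60e-10), while the call was lost with TMM factors (limma adjusted p = 0.0561), with edgeR on the recovered reads (edgeR adjusted p = 0.194) and without any one EV library, EK replicate 1 or 3 or WT replicate 1 or 3 (limma adjusted p from 0.0841 to 0.405). Neighbouring genes did not show the pattern: log2 fold changes were -0.01 for TTC3, -0.06 for DSCR3, -0.03 for DYRK1A and -0.16 for ERG. They were 0.07 for PIGP and 0.73 for DSCR9, the latter at only 3.57 to 22.8 normalized counts over the libraries. None of these neighbours was called. EK replicate 2 carried as much NSD2 as its peers, 84869.7 normalized counts, and the part of its high mitochondrial share in the result was not tested.

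**Figure D1:**
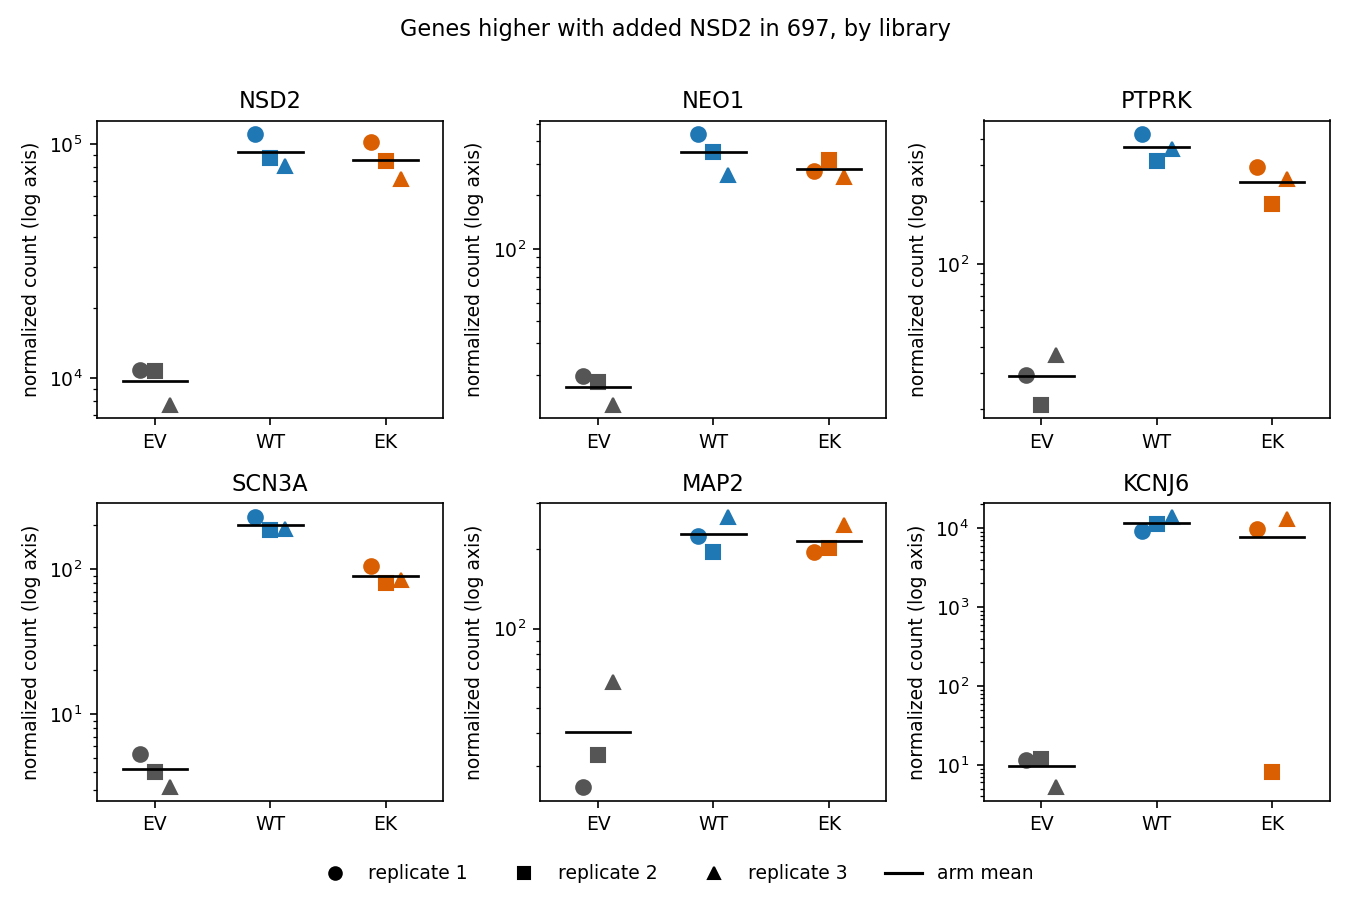
Normalized counts (log axis) of NSD2 and 5 raised genes in each library of 697, by arm; symbols mark the replicate number and bars the arm mean. NSD2, NEO1, PTPRK, SCN3A and MAP2 show no overlap between EV and the added libraries, while KCNJ6 is at 9322 to 14056 in 5 added libraries and at 8.23 in EK replicate 2.

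Cytoskeletal and scaffold proteins of neurons were the list with the most upward calls of those related to the nervous system: of 30 tested, 5 rose and 1 fell (median 0.07), where 0.877% and 0.828% of all genes tested did so. Without EK replicate 2, 7 were called higher and 2 lower. MAP2, which binds dendritic microtubules, went from 25, 33.2 and 62.8 to 196 to 267 (median 214) (2.53 ± 0.17, limma adjusted p = 4.46e-05). TANC2, a scaffold of postsynaptic densities, went from 9.81, 11.1 and 15.7 to 81.8 to 281 (median 116) (3.33 ± 0.28, limma adjusted p = 0.000210). ANK2, an ankyrin that ties membrane proteins to spectrin, went from 27.6, 21.1 and 44.0 to 75.1 to 154 (median 128) (1.88 ± 0.22, limma adjusted p = 0.00234). None of the 3 overlapped between groups. DLG2, a membrane-associated guanylate kinase, rose by 1.2 ± 0.19 (limma adjusted p = 0.0118), and CHL1, described above, is the fifth. CHL1, under 10 in every EV library, passed the minimum only through its rise, so the count of 5 is partly fixed by that minimum. The related scaffold TANC1 fell from 1729.6, 2180.3 and 1647 to 978 to 1771 (median 1281), with overlapping groups (-0.53 ± 0.10, limma adjusted p = 0.0324).

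Among called genes averaging at least 100 normalized counts with added NSD2 and showing no overlap between groups, the largest rise was that of ZNF717, a zinc finger gene, from 7.13, 11.1 and 4.19 to 130.4 to 679 (median 383) (5.32 ± 0.24, limma adjusted p = 2.93e-06). Zinc finger genes have near-identical relatives, so its counts are uncertain. C14orf37 rose from 24.1, 22.1 and 12.6 to 100.4 to 160.4 (median 124) (2.64 ± 0.18) and TMEM170B from 136, 103 and 107 to 333 to 622 (median 434) (1.95 ± 0.16), both without overlap (limma adjusted p = 4.46e-05 and 0.000210). Also among the 15 highest were DYNC2H1, the motor heavy chain of ciliary transport (1.87 ± 0.17), CYTIP, a lymphocyte partner of cytohesin (1.73 ± 0.20), the phospholipase PLCE1 (1.71 ± 0.15), RTKN2 (1.49 ± 0.23), PGM2L1 (1.49 ± 0.13) and SBF2 (1.48 ± 0.20). Their limma adjusted p-values ran from 0.000227 to 0.0118. Of the 15, 12 were called under every alternative tried; PGM2L1 lost its call without the replicate block, RTKN2 also with EK alone or without any one EV library, and SBF2 without EV replicate 1 or EV replicate 2.

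Cytokine receptor chains were among the raised genes as well; these 3 were chosen after their values were seen. LIFR, a chain of the leukaemia inhibitory factor receptor, was at 34.8, 79.4 and 22 in EV and 73.0 to 196 (median 129) with added NSD2 (1.60 ± 0.18, limma adjusted p = 0.00170). LEPR, the leptin receptor, was at 648, 452 and 449 and 569.8 to 1116 (median 700.1) (0.55 ± 0.11, limma adjusted p = 0.0349). CSF2RB, the signalling chain shared by the interleukin-3, interleukin-5 and GM-CSF receptors, was at 1151, 982 and 1323 and 1349 to 1988 (median 1523) (0.47 ± 0.09, limma adjusted p = 0.0319). Groups overlapped for LIFR and LEPR and not for CSF2RB. DNAJC6, which adjoins LEPR, was also called higher, with a log2 fold change of 1.73.

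Many raised genes that were silent or low in 697 were expressed in the other B-ALL lines. In CPM (reads scaled to a common library total), 72 of the 142 raised genes other than NSD2 lay under 1 CPM in EV cells of 697, against 3891 of 16309 genes tested. Of these 72, 32 had at least 1 CPM in EV cells of Reh, 42 in control cells of RCH-ACV (RCH) and 52 in control cells of SEM, the lines being compared across separately made tables. Over all tested genes under 1 CPM in 697, the corresponding counts were 947, 949 and 902 of 3891. The lowest of these genes could pass the minimum level only through a rise, so the contrast of 72 with 3891 is partly fixed by that minimum. PTPRK averaged 0.597 CPM in 697 with EV and 6.42 with added NSD2, but 495 in Reh, 64.5 in RCH and 45.8 in SEM. NEO1 averaged 0.350 and 6.65 CPM in 697, against 57.6, 34.2 and 30.5. Even with added NSD2, the means of both in 697 stayed below the control means of the other 3 lines. MAP2 did not follow in Reh, where it averaged 0.426 CPM against 4.69 in 697 with added NSD2. PLCE1, at 2.03 CPM in 697 with EV, was lower in control cells of all the other lines (0 in Reh, 1.45 in RCH and 0.659 in SEM). KCNJ6, CHL1, PCDHB2, PCDHB3 and RELN were under 1 CPM in control cells of Reh, RCH and SEM alike.

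Raised genes were also long. By the RefSeq table of GRCh38, 137 of the 143 had a known span, with a median of 85.0 kb against 27.2 kb over the tested genes with a span (83.5% of them). Among genes with an EV mean under 100 the medians were 117 kb for 92 raised genes and 12.6 kb for all tested, and at 100 or more they were 61.3 kb and 30.5 kb. Lowered genes had a median span of 65.4 kb. Span was not used to choose the genes, and these medians carry no test.

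Among the lowered genes were 6 of energy metabolism and oxygen response. Hypoxia-inducible factors bind the core ACGTG near genes of glycolysis and oxygen response. Of 38 such genes tested, 6 fell and none rose (P4HA2, ALDOC, HK1, BNIP3, BNIP3L and PDK1), where 0.828% of all genes tested fell and 0.877% rose. A log2 fold change below 0 was seen in 36 of the 38, as in 8670 of all 16310, and the list median was -0.22 against -0.01 over all genes. Each of the 6 added libraries showed 30 to 35 of the 38 below its own EV library, with medians from -0.35 in WT replicate 1 to -0.10 in WT replicate 2. Of all 16310 genes, 8022 (WT replicate 2) to 9168 (EK replicate 2) lay below. The 6 calls became 0 without the replicate block, 1 without EV replicate 1, 2 without EV replicate 2, 3 without EK replicate 3 or WT replicate 1, and 9 without EK replicate 2.

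P4HA2, a prolyl hydroxylase of collagen, was at 333, 369.7 and 653 normalized counts in EV and at 94.9 to 329 (median 219) with added NSD2. The lowest EV library lay just above the highest added one, and it fell by 1.19 ± 0.17 on the log2 scale (limma adjusted p = 0.00640). ALDOC, a glycolytic aldolase, was at 4011, 9362 and 9372 in EV, 2029, 6879 and 6232 with WT and 2304, 7159 and 6329 with EK. Libraries numbered 1 were low in every arm, so that the groups overlapped, and within each number both added libraries lay below EV (-0.63 ± 0.09, limma adjusted p = 0.00609). HK1, the hexokinase of most tissues, fell in the same way, from 898, 1304 and 1469 to 389.8 to 1089.7 (median 962) (-0.67 ± 0.12, limma adjusted p = 0.0200). The mitophagy receptors BNIP3 (-0.53 ± 0.09, limma adjusted p = 0.0143) and BNIP3L (-0.48 ± 0.08, limma adjusted p = 0.0181) and the pyruvate dehydrogenase kinase PDK1 (-0.45 ± 0.09, limma adjusted p = 0.0379) also overlapped between groups. HIF1A, the factor itself, was not called (log2 fold change -0.02).

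Promoter windows of 300 bases (250 before to 50 after the RefSeq start, GRCh38.p14) were found for 33 of the 38 genes, and 14 of these (42.4%) held ACGTG on either strand, where CACGTG counts on both. The motif was in 26.3% of windows of all tested genes and in 21.6% of all 27305 windows in the table. Of 108 lowered genes of 697 with a window, 21 held it (19.4%), a lower share than over all tested genes. With GCGTG counted as well, the shares were 69.7% of the list and 62.7% of all tested genes. Of the called members with a window, ALDOC and BNIP3 held it and HK1, PDK1 and P4HA2 did not. The 2 windows with a match are shown because they are the called genes of this list that carry the motif; capitals mark ACGTG or its reverse complement, 5′ to 3′ on the strand of the gene.
ALDOC (GRCh38.p14, chr17:28576846-28577145, minus strand): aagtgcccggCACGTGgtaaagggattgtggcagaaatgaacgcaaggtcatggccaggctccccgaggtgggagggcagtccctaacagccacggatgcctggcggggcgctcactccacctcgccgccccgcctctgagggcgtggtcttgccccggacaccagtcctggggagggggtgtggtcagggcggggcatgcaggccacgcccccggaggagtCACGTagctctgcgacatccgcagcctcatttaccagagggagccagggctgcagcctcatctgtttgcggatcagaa
BNIP3 (GRCh38.p14, chr10:131981874-131982173, minus strand): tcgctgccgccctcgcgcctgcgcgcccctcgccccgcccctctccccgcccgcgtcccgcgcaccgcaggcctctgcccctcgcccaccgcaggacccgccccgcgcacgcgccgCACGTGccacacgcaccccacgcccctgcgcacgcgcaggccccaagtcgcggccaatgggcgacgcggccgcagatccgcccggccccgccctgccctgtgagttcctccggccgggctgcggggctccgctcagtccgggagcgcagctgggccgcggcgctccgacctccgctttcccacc
A match is a description of letters, not of binding.

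Also lowered were 3 genes of glycogen metabolism, picked after their values were seen and with no count of other such genes. PYGL, the liver glycogen phosphorylase, fell from 1265, 1535 and 1370.0 to 550.3 to 1059 (median 923) (-0.73 ± 0.11, limma adjusted p = 0.0118). GBE1, the branching enzyme, was at 12533, 20219 and 22966 and 6293 to 16911 (median 13006) (-0.66 ± 0.09, limma adjusted p = 0.00423), and the phosphoglucomutase PGM1 at 5115, 5216 and 5627 and 3134 to 4596 (median 3854) (-0.48 ± 0.08, limma adjusted p = 0.0118). PYGL and PGM1 did not overlap between groups and GBE1 did.

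The largest fall of all called genes was that of GRIA1, a subunit of AMPA glutamate receptors, from 236, 353 and 336 normalized counts in EV to 34.0 to 145 (median 114) (-1.75 ± 0.22, limma adjusted p = 0.00364). GRIN1, the obligatory subunit of NMDA receptors and chosen after its values were seen, fell from 48.1, 57.3 and 86.9 to 13.1 to 28.8 (median 24.8) (-1.42 ± 0.21, limma adjusted p = 0.00916). Neither overlapped between groups. The homeobox gene HOXA5, a developmental regulator active in early blood cells, was at 77.6, 195 and 77.5 in EV, 12.2, 77 and 31.2 with WT and 18.2, 72.0 and 31.9 with EK. It lay below EV in all 6 comparisons within a number (-1.65 ± 0.22, limma adjusted p = 0.00587), though WT replicate 2 nearly reached the lower EV libraries. Its neighbour HOXA6, chosen after its values were seen, fell by 1.49 ± 0.26 with overlapping groups (limma adjusted p = 0.0200).

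EPHA3, a receptor for ephrin-A ligands, fell more than UNC5D, the other lowered guidance receptor: it was at 14432, 12395 and 9579.9 in EV and 4316 to 7485 (median 6509.9) with added NSD2 (-0.97 ± 0.16, limma adjusted p = 0.0162). UNC5D, a netrin receptor like NEO1, was at 1085, 3819 and 2517 and 458 to 2865 (median 1792) (-0.73 ± 0.14, limma adjusted p = 0.0271). EPHA3 showed no overlap, whereas UNC5D did. LGALS1, the secreted lectin galectin-1, fell from 1693, 2737 and 1992 to 598 to 1406 (median 1288) (-0.93 ± 0.14, limma adjusted p = 0.0111). DDAH1, which degrades methylated arginines, fell from 1263, 1814 and 1528 to 595 to 1128 (median 862) (-0.86 ± 0.08, limma adjusted p = 0.000314), and both genes were lower without overlap. Also among the 15 lowest were the teneurin TENM1 (-1.46 ± 0.20), LRRC3B (-1.33 ± 0.21), the G-protein subunit GNG12 (-1.30 ± 0.16), the growth factor BMP3 (-1.17 ± 0.17), the aromatic amino acid transporter SLC16A10 (-1.09 ± 0.20), ABHD12B (-0.95 ± 0.20), LRP4 (-0.90 ± 0.18) and ATF7IP2 (-0.88 ± 0.14). Their limma adjusted p-values ran from 0.00397 to 0.0434. None of the 15 was called under every alternative: 14 were lost without the replicate block and 9 without EV replicate 1 or EV replicate 2.

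**Figure D2:**
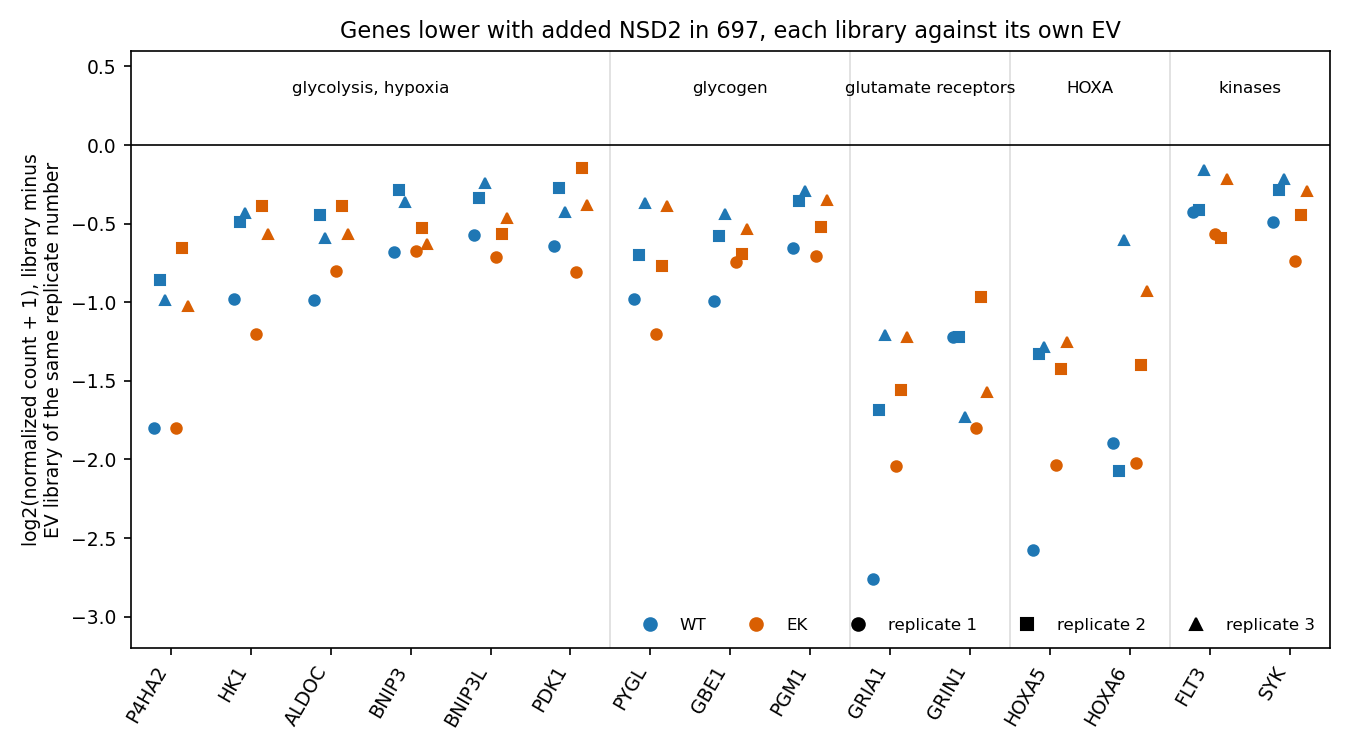
Each added library of 697 minus the EV library of its own replicate number, in log2(normalized count + 1), for 15 lowered genes; colours mark WT and EK and symbols the replicate number. All points lie below 0, and for P4HA2, HK1, GRIA1 and HOXA5 the libraries numbered 1 lie lowest.

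Falls in signalling genes of B-cell leukaemia were small. FLT3, a receptor tyrosine kinase of progenitors, fell from 6059.8, 6791 and 5957 to 4099 to 5346 (median 4811) (-0.39 ± 0.08, limma adjusted p = 0.0350), and SYK, the kinase next to the pre-B receptor, from 4240.2, 3904 and 4004 to 2546 to 3441 (median 3109.6) (-0.41 ± 0.08, limma adjusted p = 0.0405). Neither overlapped, and neither call held without EV replicate 1, EV replicate 2, EK replicate 1, EK replicate 3 or WT replicate 1. SYK was the only call among 27 B-cell surface, pre-B receptor and recombination genes, of which 4 were called lower without EK replicate 2. FLT3 and HOXA5 were the only calls among 12 stem and progenitor regulators. ITGB2, the beta chain of leukocyte integrins, fell from 1635, 1988 and 2677 to 828 to 1753 (median 1321) (-0.70 ± 0.08, limma adjusted p = 0.00191), the only call among 28 integrins, selectins and homing receptors (2 calls without EK replicate 2). SPRY1, a feedback inhibitor of ERK signalling, fell by 0.59 ± 0.11 (limma adjusted p = 0.0273), the only call among 33 ERK feedback and immediate early genes. ITGB2 and SPRY1 overlapped between groups.

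Of 28 targets of p53, the DNA damage-responsive transcription factor, 5 rose and none fell, where 0.877% of all genes tested rose, and 22 lay above 0 (median 0.16), as did 7640 of all 16310. ZMAT3, an RNA-binding p53 target, was at 1862, 1759 and 1792 in EV and 2159.5 to 2809 (median 2454) with added NSD2, without overlap (0.45 ± 0.08, limma adjusted p = 0.0181). CDKN1A, which encodes the cyclin-dependent kinase inhibitor p21, was at 4191, 3662 and 3319 and 4128 to 7724 (median 5544) (0.55 ± 0.10, limma adjusted p = 0.0222), with EK replicate 3 just below the highest EV library. SESN2 was at 416, 1718 and 673 in EV, 719.9, 2362 and 796 with WT and 729, 2619 and 812 with EK (0.53 ± 0.10, limma adjusted p = 0.0219). SESN2 was highest in every library numbered 2 and lay above EV within each number. PHLDA3 (0.74 ± 0.15, limma adjusted p = 0.0390) and FDXR (0.40 ± 0.09, limma adjusted p = 0.0497) were the remaining calls. The count was 0 without the replicate block, without EV replicate 1 and without EV replicate 2, 1 without EK replicate 1, 2 without EK replicate 3 and 3 without WT replicate 1 or WT replicate 2.

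SESN2 also belongs to the integrated stress response, where it and ATF3 were the only calls among 31 genes, both higher. ATF3, a stress-induced transcription factor, was at 348, 442 and 1033 in EV and 574 to 1329 (median 731) with added NSD2 (0.62 ± 0.11, limma adjusted p = 0.0178). In the BCL2 family, which governs mitochondrial cell death, the pro-apoptotic BMF rose from 222, 164 and 343 to 241 to 799 (median 545) (0.98 ± 0.19, limma adjusted p = 0.0293), and BNIP3 and BNIP3L, described above, fell, leaving 15 of 18 uncalled. ATF3 and BMF overlapped between groups, and none of the 3 BCL2 family calls held without the replicate block, EV replicate 1 or EV replicate 2. LIG4, the ligase of end joining, was the only call among 31 mismatch and break repair genes (0.34 ± 0.07, limma adjusted p = 0.0493). ABCA7, a lipid transporter, rose from 348, 280.3 and 369 to 439 to 622 (median 529) without overlap (0.67 ± 0.10, limma adjusted p = 0.00844), the only call among 22 ABC transporters. Collagens split: COL5A2 rose (1.10 ± 0.18, limma adjusted p = 0.0143) while COL24A1 (-0.98 ± 0.15, limma adjusted p = 0.0118) and COL4A1 (-0.43 ± 0.07, limma adjusted p = 0.0160) fell, among 33 matrix genes, and none of these 3 calls held without the replicate block.

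Of 30 enzymes and readers of H3K36 and H3K27 methylation, the only other call was PHF19, a Polycomb accessory subunit that recognises methylated H3K36, which fell from 5798, 5827 and 6344 to 3907 to 5245 (median 4963) (-0.33 ± 0.07, limma adjusted p = 0.0472). EZH2 (-0.03), SETD2 (0.17), NSD1 (0.09) and NSD3 (0.06) were not called. TXNIP, a thioredoxin inhibitor that glucocorticoids induce, was the only call among 26 glucocorticoid receptor and response genes (-0.33 ± 0.07, limma adjusted p = 0.0493), and the receptor NR3C1 itself was not called (-0.25, limma adjusted p = 0.127). No call was made among 31 genes of thiopurine, cytarabine and antifolate handling, 29 B-lineage transcription factors (2 calls without EK replicate 2) or 13 mitochondrially encoded transcripts.

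Some lists leaned without a single call. All 15 class II antigen presentation genes lay above 0 (median 0.23) and all 55 replication-dependent histones below 0 (median -0.22), where 8670 of all 16310 genes lay below 0. The lean was not shared by all libraries. Histones were below their own EV library in 54, 55 and 52 of 55 genes in EK replicates 1, 2 and 3 and in 54 in WT replicate 1, but in 15 and 20 genes in WT replicates 2 and 3. Class II genes were above it in 14 of 15 in the 3 WT libraries and EK replicate 1, and in 4 and 9 of 15 in EK replicates 2 and 3. S phase genes (32 of 37 below 0, median -0.10) and G2 and M phase genes (33 of 35, median -0.17) were likewise lowest in the libraries numbered 1 and in EK replicate 2, and the medians of WT replicate 3 were above 0 (0.02 and 0.05). Glycolysis and hypoxia genes, by contrast, had negative medians in each of the 6 libraries.

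**Figure D3:**
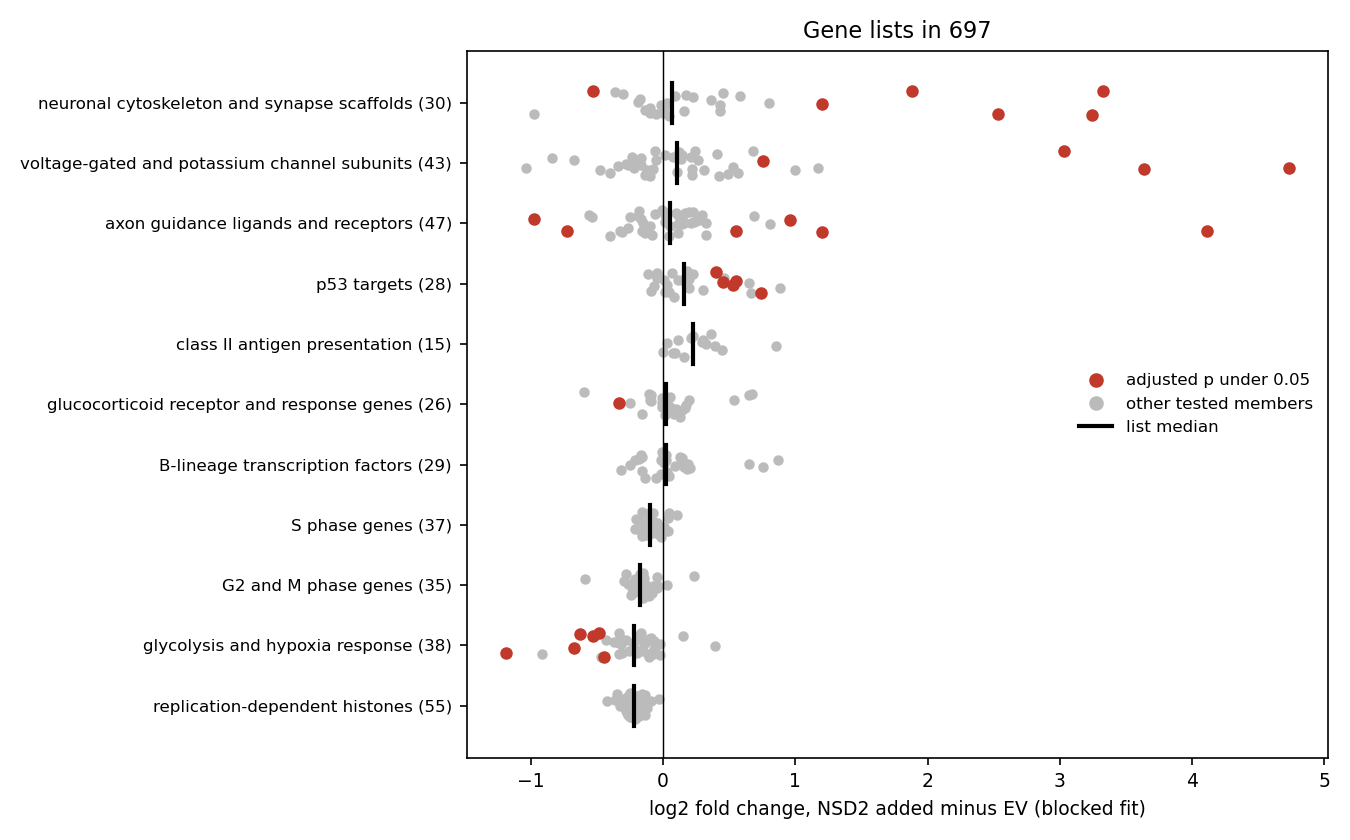
Log2 fold changes, added NSD2 minus EV, of the tested members of 11 gene lists in 697 (number tested in brackets); red points have an adjusted p under 0.05 and black bars mark list medians. Calls far to the right lie in the neuronal and channel lists, while the glycolysis and hypoxia list holds 6 calls to the left of 0.

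Wild-type and E1099K NSD2 gave no called difference in limma (0 of 16310 genes, 0%), with 914 genes under 0.05 before adjustment. With edgeR, 2 genes were called. The set of 143 raised genes had a median difference, EK minus WT, of -0.06, with 84 of them lower in EK. KCNJ6 differed by -3.43, 95% interval -7.48 to 0.61, EK replicate 2 being its only low library. Among the other raised genes named here the widest gap was in SCN3A, whose EK and WT libraries did not overlap. The difference was -1.16, 95% interval -1.60 to -0.72 (unadjusted p = 0.000147, limma adjusted p = 0.783). PTPRK differed by -0.56, 95% interval -0.91 to -0.21, KCNMB4 by -0.60, 95% interval -1.12 to -0.08, ANK2 by -0.57, 95% interval -1.0 to -0.14 and TMEM170B by -0.46, 95% interval -0.74 to -0.17, each lower with EK and each with a limma adjusted p of 0.783. For NEO1 (-0.28, 95% interval -0.64 to 0.08), MAP2 (-0.09, 95% interval -0.54 to 0.36) and GRIA1 (0.28, 95% interval -0.26 to 0.82) the interval included 0. A p that misses the threshold does not show that the proteins act alike. Against the same 3 EV libraries, WT alone gave 333 calls (154 higher and 179 lower) and EK alone 102 (60 and 42). Before adjustment, 2139 genes lay under 0.05 in limma with WT and 2387 with EK. The raised genes had a median log2 fold change of 1.21 with WT and 1.27 with EK, and the lowered genes -0.63 with each. The counts of calls therefore do not measure the size of the response.

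Reh, a B-ALL line with the ETV6-RUNX1 fusion, has the same 3 arm names (EV, WT and EK) with 2 replicates each; the labels do not say whether its vectors were those used in 697. NSD2 was at 571 and 586 CPM in EV and 1546 to 1778 CPM in the 4 added libraries (log2 fold change 1.54 ± 0.10, edgeR adjusted p = 0.00125), a smaller rise than in 697 (difference 1.67 ± 0.14, limma adjusted p = 1.28e-05). In 697 NSD2 made up 0.0163% to 0.0225% of counts in EV and 0.153% to 0.231% with added NSD2. Per library total, Reh thus started higher in EV, and its added libraries lay within the range of those of 697. Of 112 raised genes of 697 tested in Reh, NSD2 aside, 6 were called higher and none lower. Of all genes tested in Reh 0.407% were called higher, and of those tested in both lines 0.307%. A positive sign was seen in 80 of the 112 (71.4%, against 52.4% of all genes tested in both lines). Of 110 lowered genes, 3 were called lower (0.207%) and 3 higher. Libraries of Reh with the same number deviated together (correlations from 0.718 to 0.766 in 6 pairs). With 2 libraries per arm the deviations mirror each other, so different numbers gave the same values with the sign reversed (-0.766 to -0.718). These values cannot show that the numbers pair the libraries of Reh. With the numbers as a block 599 genes were called in place of 98, including 29 of the raised genes called higher. The 6 raised genes called higher became 3 without WT replicate 1 of Reh.

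The shared risers were SCN8A, PCNXL2, TSPAN12, ZNF521, PLXNA2 and LIG4. SCN8A, TSPAN12, ZNF521 and PLXNA2 averaged at most 0.241 CPM in EV cells of Reh and passed its low-count filter only through the added libraries. In 697, SCN8A, TSPAN12 and ZNF521 likewise passed the minimum only through their rise. The count of shared risers is thus partly fixed by these filters. SCN8A was at 0.261 and 0.221 CPM in EV and 2.12 to 3.12 CPM in the 4 added libraries (log2 fold change 3.48 ± 0.30, edgeR adjusted p = 0.00337), and the difference from 697 was -0.30 ± 0.47 (limma adjusted p = 0.993). PLXNA2 was at 0.112 and 0 CPM in EV and 1.67 to 2.94 CPM in the 4 added libraries (5.31 ± 0.61, edgeR adjusted p = 0.0107) and rose more in Reh than in 697 (difference -3.96 ± 0.59, limma adjusted p = 0.00331). PCNXL2, at 0.931 and 0.737 CPM in EV and 7.50 to 9.96 CPM in the 4 added libraries, likewise rose more in Reh (-1.94 ± 0.30, limma adjusted p = 0.00385). The zinc finger factor ZNF521 and the tetraspanin TSPAN12 went in 697 from 0.892, 0 and 5.23 to 8.23 to 54.9 (median 22) and from 8.92, 3.01 and 1.05 to 16.5 to 51.4 (median 26.5) normalized counts. Shared falls were in ARHGAP18, IRAK3, an inhibitor of Toll-like receptor signalling, and PARP8. IRAK3 fell from 211, 228 and 221 to 100 to 170.0 (median 137) normalized counts in 697 (-0.69 ± 0.14, limma adjusted p = 0.0372) and was at 11.3 and 13.1 CPM in EV and 3.67 to 4.85 CPM in the 4 added libraries (-1.52 ± 0.15, edgeR adjusted p = 0.00497).

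A joint fit of both lines called 166 of 17903 genes (0.927%) for a different response, among them 42 of the raised and 16 of the lowered genes of 697. These genes were chosen on the 697 change, which favours a difference in that direction. NEO1 was already at 57.6 and 57.5 CPM in Reh with EV and changed by 0.31 ± 0.08 (difference 3.81 ± 0.19, limma adjusted p = 1.44e-07). PTPRK was at 467 and 524 CPM in EV and 397 to 517 CPM in the 4 added libraries (difference 3.48 ± 0.27, limma adjusted p = 7.46e-06). Genes called in opposite directions in the 2 lines were NELL1, LRIG1 and CASP1. NELL1, a secreted protein, fell from 2821, 5974 and 5287 to 1278 to 3768 (median 3172) normalized counts in 697 (-0.78 ± 0.11, limma adjusted p = 0.00592) and was at 2.87 and 3.24 CPM in EV and 8.43 to 12.7 CPM in the 4 added libraries (1.78 ± 0.19, edgeR adjusted p = 0.00842). LRIG1, a negative regulator of receptor tyrosine kinases, changed by -0.47 ± 0.06 in 697 and 0.88 ± 0.13 in Reh, and CASP1, the inflammatory caspase, by -0.66 ± 0.13 and 1.57 ± 0.25. The differences were -2.53 ± 0.19, -1.33 ± 0.14 and -2.20 ± 0.27 (limma adjusted p = 6.81e-06, 0.000131 and 0.000592).

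In SEM, a line with the KMT2A-AFF1 fusion, many of the genes raised in 697 with added NSD2 were lower with a hairpin against NSD2. The hairpin sh2, which the series text describes as the NSD2 knockdown, left NSD2 at 346 ± 18.6 CPM with NT and 172 ± 8.16 CPM with sh2, the control being a non-targeting hairpin (NT) (n = 3 each, SD; log2 fold change -1.0 ± 0.06, edgeR adjusted p = 3.68e-07). Of 119 raised genes of 697 tested in SEM, NSD2 aside, 73 were called lower (61.3%, where 14.2% of all genes were called lower) and 14 higher (11.8%, where 11.6% of all were). Across alternatives the count of 73 ranged from 65 to 76. The other hairpin that the series used in SEM and in RCH was not compared here. Whether the changes with sh2 come from the lower NSD2 was not tested. Of 106 lowered genes of 697, 24 were called higher in SEM (22.6%) and 32 lower (30.2%). The calls in SEM numbered 4270 in all, or 6701 with the replicate block, its numbers pairing libraries at correlations from 0.359 to 0.605.

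PTPRK was at 45.8 ± 4.07 CPM with NT and 1.15 ± 0.144 CPM with sh2 (-5.30 ± 0.12, edgeR adjusted p = 6.81e-10) and MAP2 at 6.64 ± 0.232 CPM with NT and 0.218 ± 0.131 CPM with sh2 (-4.94 ± 0.27, edgeR adjusted p = 1.47e-07). Both were thus lower in SEM with less NSD2 and higher in 697 with more. C14orf37 (-3.11 ± 0.14), TMEM170B (-2.08 ± 0.11), SCN3A (-2.89 ± 0.23) and NEO1 (-1.22 ± 0.09) fell as well, with edgeR adjusted p-values from 4.27e-08 to 3.10e-06. ZNF521, raised by NSD2 in 697 and in Reh, was at 2.27 ± 0.201 CPM with NT and 0.0458 ± 0.0404 CPM with sh2 (-5.52 ± 0.43, edgeR adjusted p = 2.35e-06). TSPAN12, also raised in both, was at 2.18 ± 0.262 CPM with NT and 0.204 ± 0.0636 CPM with sh2 (-3.40 ± 0.29, edgeR adjusted p = 4.64e-06). CYTIP was an exception, higher in SEM with sh2 by 0.33 ± 0.06 (edgeR adjusted p = 0.00133). Among lowered genes, LGALS1 rose in SEM, at 249 ± 30.5 CPM with NT and 521 ± 33.3 CPM with sh2 (1.08 ± 0.08, edgeR adjusted p = 3.08e-06), and so did PYGL (0.71 ± 0.08) and ITGB2 (0.81 ± 0.07), whereas EPHA3 fell there too (-3.75 ± 0.27, edgeR adjusted p = 1.41e-06).

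In RCH, sh2 gave 347 calls (2.08%), a count that ran from 1 without NT replicate 2 to 2568 without NT replicate 1. NSD2 was not called there (log2 fold change -0.75 ± 0.19, edgeR adjusted p = 0.0818). Of 120 raised genes of 697 tested, 80 had a negative sign (66.7%, against 50.5% of all genes tested in both), with a median of -0.44, and none was called lower (0.371% of all genes were) and 3 were called higher (1.71%). The count called lower was 10 without NT replicate 1 or sh2 replicate 3, 22 with DESeq2 and 30 with no low-count filter. NEO1 (-1.25 ± 0.49) and PTPRK (-0.92 ± 0.43) were negative and not called. Of 115 lowered genes, 8 were called higher, among them FLT3 (1.38 ± 0.21, edgeR adjusted p = 0.0185).

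**Figure D4:**
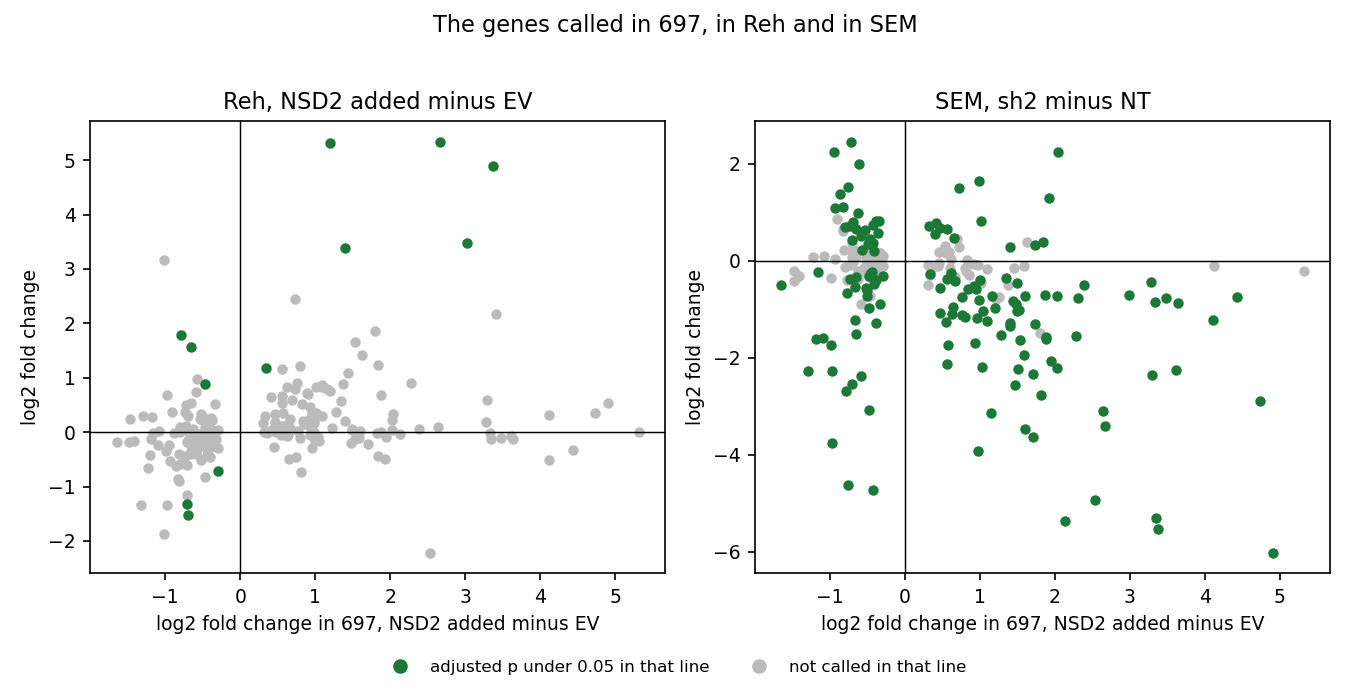
Log2 fold changes of the genes called in 697 (horizontal axes, NSD2 left out) against those in Reh with added NSD2 and in SEM with the hairpin sh2 (vertical axes); green points have an adjusted p under 0.05 in that line. Few points are called in Reh, and to the right of 0 in SEM most green points lie below 0 (73 lower, 14 higher).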

How the data were processed

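RNA was extracted with a column kit and made into ribosome-depleted stranded libraries, per the labels' protocols; the submitters' processing notes name Trimmomatic, STAR, featureCounts and the build hg19, without versions. For 697 the authors deposited normalized counts (a signal scaled per library), and for Reh, RCH and SEM raw read counts were also deposited. All normalized values of 697 were whole multiples of 1 read (100%, tolerance 0.001), which gave the depth and the recovered reads. Depth was 40664735 to 57179806 reads in 697, 23688482 to 27244031 in Reh, 21876505 to 54879265 in RCH and 32508206 to 39468598 in SEM.

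Values of 697 were tested with limma 3.58.1 (R 4.3.3; moderated variances with a trend) on log2(normalized count + 1), keeping genes with a mean of at least 10, with the replicate number as block. The scale understates changes of low genes. Raw counts of the other lines were tested with edgeR 4.0.16 (quasi-likelihood), and 697 minus Reh with limma in 1 fit. Calls had a Benjamini-Hochberg adjusted p under 0.05 over all genes tested. Errors after log2 values are standard errors. Numbers pair the 697 libraries by their correlated deviations (9 pairs, 0.423 to 0.604), not by a label, and pair those of SEM likewise. In Reh, 2 replicates per arm cannot show such pairing. In Reh and SEM the main test has no block. EK against WT was tested with all arms as terms. Alternatives were DESeq2 1.42.0, edgeR, other scalings, pseudocounts of 0.5 and 5, other minimums and each library left out; checks of gene list counts and of raised genes in other lines were added after seeing the data.

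The genes and lists were chosen with earlier results of these data known. Named genes are NSD2, the 15 largest rises and 15 largest falls among calls whose groups did not overlap and reached a mean of 100 (clone, antisense, small RNA and pseudogene names left out), up to 4 called members per list by adjusted p, with any list member allowed as an example, and up to 8 genes each shared with Reh, different from Reh or opposite in RCH or SEM; others are marked as chosen after their values were seen, and 1 of the 15 falls is not reported here. In both files of Reh, 3 columns matched no sample and were not used. In RCH and SEM 27 gene names had become dates (0.2468% and 0.2311% of reads) and stayed out. WHSC1 is shown as NSD2 and WHSC1L1 as NSD3. Gene spans and promoters are from RefSeq on GRCh38, used for gene structure only. Statistics were tested on simulated data; figures used matplotlib 3.10.9.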

Additional observations from a re-analysis of the deposited data

Results flagged for a closer look

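Among the 6 libraries of 697 with added NSD2, 5 of 89 named genes had 1 library far from the other 5, its gap to the nearest exceeding Dixon's critical share of the whole range, where chance gives about 1 gene in 20. KCNJ6 was at 8.23 normalized counts in EK replicate 2, which also had the highest mitochondrial share. TANC2 stood at 281 normalized counts in the same library, the highest of its 6, so this library was not low for every raised gene. SBF2 (605 normalized counts) and PCNXL2 (171) were extreme in EK replicate 1, and TSPAN12 (51.4) in WT replicate 1.

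For 31 named genes, the joint limma fit called the log2 response in 697 different from that in Reh, an interaction test over 9 and 6 libraries. A positive difference means a larger rise, or smaller fall, in 697. It was 1.67 for NSD2, 5.32 for ZNF717, 4.34 for SCN3A, 3.81 for NEO1, 3.48 for PTPRK, 3.37 for TANC2, 2.58 for C14orf37, 4.82 for MAP2 and 2.05 for TMEM170B. It was also 1.90 for ANK2, 2.88 for CYTIP, 1.46 for RTKN2, 1.43 for PGM2L1, 1.69 for SBF2, 4.65 for CHL1, 3.78 for KCNMB4, 1.95 for FAT4, 4.43 for CALCRL and 0.79 for AASS. The response in 697 was lower than in Reh by a log2 difference of -1.45 for HOXA5, -1.58 for GNG12, -1.26 for LRP4, -0.84 for ATF7IP2, -1.79 for DDAH1, -3.96 for PLXNA2, -0.76 for CDH24, -0.83 for LIG4, -1.94 for PCNXL2, -2.53 for NELL1, -1.33 for LRIG1 and -2.20 for CASP1. For CYTIP, DDAH1 and CHL1 no Reh fold was fitted on its own because their Reh counts fell below the minimum, and their differences rest on a gene near 0 in Reh (at most 0.333 mean CPM in any arm). CHL1 and CALCRL also had 3 reads or fewer over the EV libraries of 697, so the sizes of their differences depend on the pseudocount. MAP2 was near 0 in Reh too, at 0.447 and 0.406 CPM in EV and 0 to 0.188 CPM in the added libraries. Part of its difference is a fall in Reh that was not called (-2.22, edgeR adjusted p = 0.331). Most of these genes were chosen by their change in 697, so that a difference in that direction is favoured by the choice.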

How the results depend on the processing

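No call of the 278 changed sign under any alternative. The count of 278 became 50 without the replicate block, 102 with EK alone against EV, 505 with DESeq2 on recovered reads and 108 at 2-fold or more, and ran from 58 to 425 when 1 library was left out; edgeR with the block gave 307, TMM factors 271 and no minimum level 316. The comparison of EK with WT gave 0, 2 with edgeR, and 0 to 2 with 1 library left out. The 98 calls in Reh became 599 with the replicate block, 302 with DESeq2 and 407 with no low-count filter, and 22 to 92 with 1 library left out. The 166 differences between 697 and Reh became 269 with the block in both lines and 98 with none, and 111 to 171 with 1 library left out. The 347 calls in RCH became 788 with the replicate block, 1374 with DESeq2 and 2343 with no low-count filter, and 1 to 2568 with 1 library left out. The 4270 calls in SEM became 6701 with the replicate block, and 3243 to 4415 with 1 library left out. In RCH the libraries share only a number (same-number correlations from 0.005 to 0.407). The cause of these shifts was not tested. Over the 89 named genes, 1573 of 1947 alternative values kept direction and call, 374 kept the direction and lost the call, and none reversed. The lack of reversals here too is mostly fixed by the choice of called genes. At EV levels under 20 normalized counts, as for 57 of the raised genes, the size of a rise depends on few reads.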
